A study of Mus musculus with 12 samples.

Results

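Endothelial cells line every blood vessel of the fetal gonad, and 10 genes that mark them were followed here: Cdh5, Pecam1, Esam and Emcn of the cell surface and its junctions, the receptors Kdr, Flt1, Tek and Tie1, the transcription factor Sox17 and the ephrin Efnb2. They were chosen by name, through the probes that carry these symbols on the array, and all 10 were among the 18666 genes tested. RNA from 1 pair of gonads per sample was hybridised to single-colour Agilent arrays at E14.5, with 3 samples in each of 4 groups and 12 arrays in all. Pregnant females had received tamoxifen at E9.5 and E10.5 in every group, in a mixed background. Every control was Stra8+/-. Control testes 1, 2 and 3 and control ovary 1 were Smad4Flox/+ with the StellaMerCreMer transgene, control ovary 2 was Smad4Flox/+ and control ovary 3 was Smad4Flox/Flox, both with no Cre in the label. The Smad4 (Stella) ovaries were Smad4flox/flox MerCreMer Stra8+/-, and the DKO ovaries were Smad4flox/flox MerCreMer Stra8-/-. The Cre is driven by elements of Stella, a gene of germ cells, with an efficiency that the study calls variable, so endothelial cells were not its target. Stra8, in contrast, was lacking in every cell of the DKO embryos, and heterozygous in every cell of the other groups.

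VEGF is the main growth signal of endothelial cells and acts through Kdr (VEGFR2), its signalling receptor, while Flt1 (VEGFR1) binds the same ligand with high affinity and largely holds it back. Tek (TIE2) is the receptor of the angiopoietins, and Tie1 is its partner without a well-defined ligand. In the developing testis, endothelial cells from the neighbouring mesonephros enter the gonad and form an arterial coelomic vessel with its branches, whereas the fetal ovary keeps a finer plexus. The comparison of testes with ovaries therefore asks whether the genes of the vessel lining differ with the sex of the gonad, and the comparison of the mutant ovaries asks whether they moved with the germ cells in which Smad4 was deleted.

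The findings turn on a few probes, and their first 30 of 60 bases are shown. Kdr and Flt1 were the members called between testes and ovaries or between testes and mutant ovaries. The 2 Sox17 probes that were kept gave different values. Positions are those of the array design on mm9, and all 5 probes lie on the minus strand of their chromosomes. The Kdr probe spans chr5:76329309-76329368. The Flt1 probes span chr5:148373791-148373850 and chr5:148373864-148373923, side by side, and the Sox17 probes span chr1:4481890-4481949 and chr1:4481503-4481562. The exon or UTR at these positions is not given in the sources used here.
Kdr probe: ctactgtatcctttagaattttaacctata
Flt1 brighter probe: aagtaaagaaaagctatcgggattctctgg
Flt1 dimmer probe: cctgtattattccgattttaataatctaat
Sox17 dimmer probe: cagtatctgccctttgtgtataagcccgag
Sox17 brighter probe: ctcactgacttattccatttcttgaaagtg

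Promoter sequence of RefSeq on GRCm38.p6 was at hand for 6 members, Emcn, Tek, Tie1, Kdr, Flt1 and Efnb2, and not for Cdh5, Pecam1, Esam and Sox17. The 250 bases before the start of Kdr (chr5:75978456-75978705, minus strand) and of Flt1 (chr5:147726012-147726261, minus strand) are shown because these VEGF receptors differed in opposite directions between testes and ovaries. Capitals mark AGGAAG, a sequence that holds the GGAA core of ETS sites, on either strand. Only this longer sequence was searched. GGAA in other surroundings, which the Kdr window also holds, is not marked.
Kdr: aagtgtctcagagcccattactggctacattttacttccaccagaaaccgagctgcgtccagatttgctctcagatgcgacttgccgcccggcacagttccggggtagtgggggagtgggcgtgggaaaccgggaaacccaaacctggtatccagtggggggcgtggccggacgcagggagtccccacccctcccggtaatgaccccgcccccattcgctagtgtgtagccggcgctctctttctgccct
Flt1: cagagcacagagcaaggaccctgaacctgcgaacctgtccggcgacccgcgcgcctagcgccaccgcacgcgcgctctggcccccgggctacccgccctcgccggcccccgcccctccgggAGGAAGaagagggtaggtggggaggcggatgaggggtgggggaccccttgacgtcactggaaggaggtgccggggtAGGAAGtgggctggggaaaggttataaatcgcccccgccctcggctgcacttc
Flt1 held AGGAAG 129 and 53 bases before its start. Over windows that also took in the 50 bases after the start, the motif was in 3 of the 6 members (Emcn, Flt1 and Tie1) and in 35.4% of 32841 windows of all genes. The GATA motif AGATAA was in 1 of the 6 (Tek) and in 11.2% of all windows, and the SOX motif ACAAT was in 2 of the 6 (Emcn and Tek) and in 31.0% of all windows. In the 250 bases before the start no matches overlapped in the members, both strands were searched, and a match describes letters only.

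Levels are given as log2 of the processed spot intensity minus the log2 75th percentile of the same array, so 0 is the intensity at that percentile, and a level of 1 probe is not set against that of another. Between 59.3% and 71.0% of spots per array were well above background, and replicate arrays correlated at r = 0.976 to 0.994 over genes. The labels were checked on Stra8 and Smad4. Stra8 was at 6.16 to 6.71 in control ovaries and 6.28 to 6.41 in Smad4 (Stella) ovaries, 5.28 to 5.61 in DKO ovaries, and -2.98 to -2.32 in control testes. Smad4 overlapped between all groups, at 1.99 to 2.35 in control ovaries, 2.08 to 2.26 in Smad4 (Stella) ovaries and 1.96 to 2.19 in DKO ovaries. Whether these probes lie in the deleted parts is not given in the sources used here. The 3 testes and control ovary 1 were on 1 slide, control ovaries 2 and 3 with DKO ovaries 1 and 2 on another, and the Smad4 (Stella) ovaries with DKO ovary 3 on the third. Slide and sex were thus nearly one and the same, and for several genes the difference between testes and ovaries is also given within the first slide. Those values rest on control ovary 1 alone. Its array had the lowest share of spots well above background (59.3%) and the lowest 75th percentile (476). It was also the only control ovary with the Cre in its label.

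Of the 10 endothelial genes, 1 was called between control testes and control ovaries: Kdr fell in testes, at an adjusted p under 0.05 with a change of at least 1.5-fold. That is against 34% of all genes called in this comparison. With the adjusted p alone, 4 of 10 passed, Flt1 and Cdh5 higher and Kdr and Sox17 lower in testes, against 47.7% of all genes. The median difference of the 10 was 0.23, and that of all genes 0.02. The endothelial genes were therefore not called more often than genes at large, and the receptors of VEGF, which differed most clearly, went in opposite directions. In whole gonads, fewer endothelial cells and less RNA per cell cannot be told apart.

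**Figure D1:**
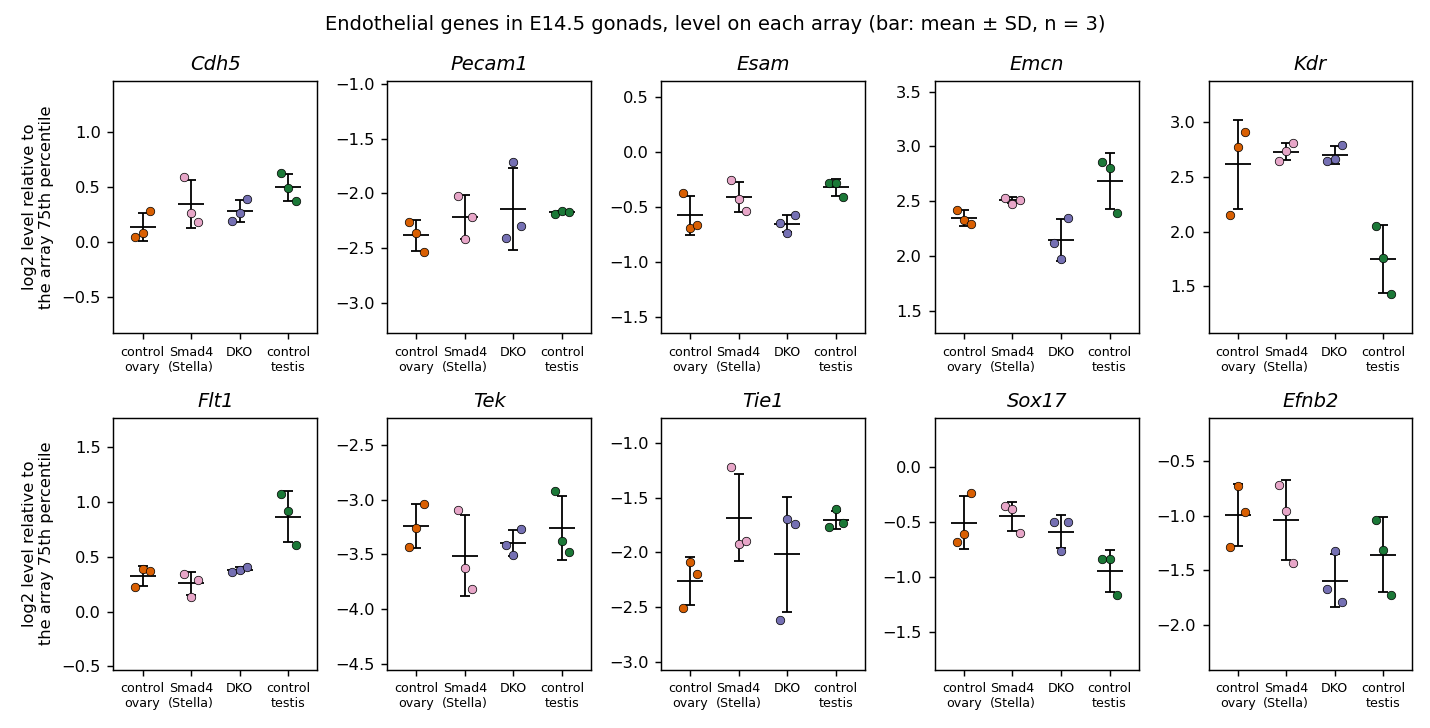
Log2 level relative to the array 75th percentile (y axis, every panel spanning the same range) of the 10 endothelial genes on each of the 12 arrays; points are arrays, the bar is the mean ± SD of 3. The 3 testes lie below all 9 ovaries for Kdr and Sox17 and above them for Flt1, and the groups overlap for the other genes.

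Kdr, the signalling receptor of VEGF, was at 2.16, 2.77 and 2.91 in control ovaries 1, 2 and 3. It was at 2.65, 2.73 and 2.81 in the Smad4 (Stella) ovaries and at 2.64, 2.66 and 2.79 in the DKO ovaries. It was at 2.05, 1.76 and 1.43 in the control testes. Every testis thus lay below every ovary, but control ovary 1, the one on the slide of the testes, lay closer to the nearest testis, at 2.05, than to any of the other 8 ovaries. In control testes Kdr fell by 0.87 on the log2 scale (SE 0.20, limma adjusted p = 0.00471), which is 1.82-fold lower. Within the first slide the mean of the 3 testes was lower by a difference of -0.41 than control ovary 1, with no overlap, and with the slide as a block the value was the same, -0.41 (adjusted p = 0.153), so the call was lost. Without control ovary 1 the difference was -1.10 (adjusted p = 0.000531). The Kdr probe was printed at 10 spots on each array, and the SD between these spots was 0.05 to 0.08, below the SD of 0.40 between control ovaries and 0.31 between testes.

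In the order of group means, Kdr was highest in Smad4 (Stella) ovaries (2.73 ± 0.08, SD, n = 3), then DKO ovaries (2.70 ± 0.08), control ovaries (2.61 ± 0.40) and control testes (1.75 ± 0.31). The first 3 of these did not differ beyond their spread, with differences between ovary groups of -0.03 to 0.12. Between neighbours in this order, the step from control ovaries to control testes was the one that passed the test.

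Flt1, the high-affinity VEGF receptor that limits the signal through Kdr, went the other way. It was at 0.22, 0.39 and 0.37 in control ovaries and at 1.07, 0.92 and 0.61 in control testes. The Smad4 (Stella) ovaries were at 0.34, 0.14 and 0.29, and the DKO ovaries at 0.36, 0.38 and 0.41. All 3 testes lay above all 9 ovaries, and control ovary 1 was here close to the other ovaries. The difference of control testes from control ovaries was 0.54 (SE 0.12, limma adjusted p = 0.00406), a 1.45-fold higher level that passed the adjusted p and stayed just under the limit of 1.5-fold. The brighter of the Flt1 probes gave 0.62 (SE 0.12, adjusted p over probes 0.00199), past the limit, and the dimmer gave 0.46 (SE 0.13, adjusted p = 0.0132). Within the first slide the testes were 0.64 above control ovary 1, and with the slide as a block Flt1 was called (0.64, adjusted p = 0.0198). Another 2 Flt1 probes did not rise well above background anywhere and were left out of the level.

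**Figure D2:**
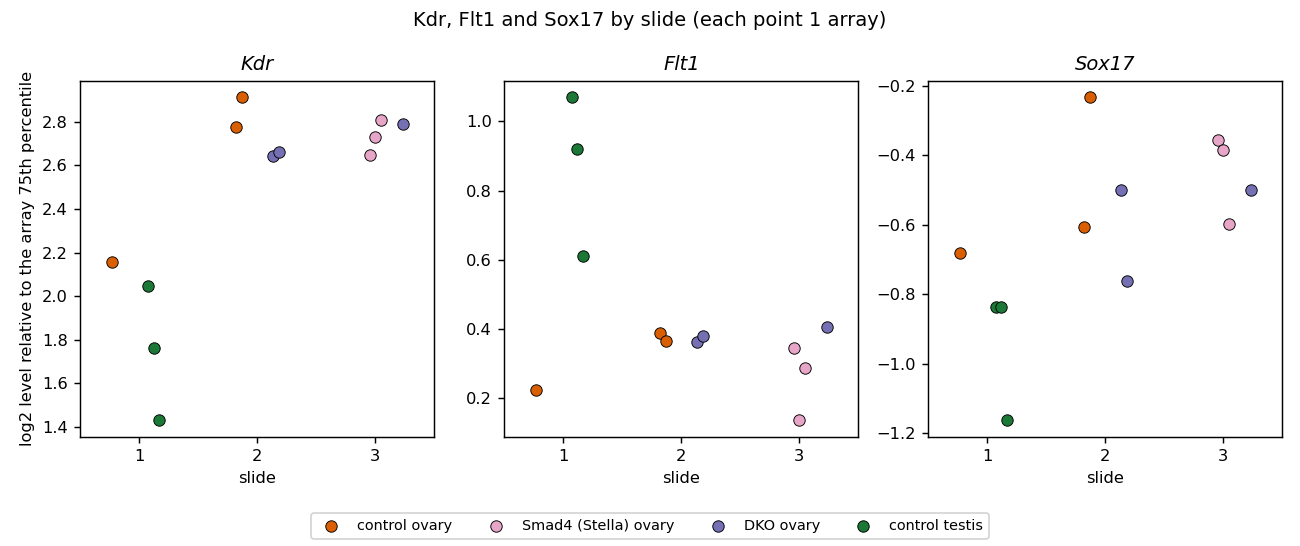
Log2 level relative to the array 75th percentile (y axis) of Kdr, Flt1 and Sox17 against the slide (x axis); each point is 1 array, coloured by group, and axes differ between panels. Control ovary 1, on slide 1 with the testes, is at 2.16 for Kdr, between the testes and the other ovaries, whereas for Flt1 it is at 0.22, with the ovaries.

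Testes lay outside the range of all 9 ovaries for 3 of the 10 genes, Flt1 above and Kdr and Sox17 below, against 33.2% of 18604 genes with a value on every array. The receptors Tek and Tie1 were not among these 3, a count near the share of all genes. Tek, the angiopoietin receptor, was at -3.43, -3.26 and -3.04 in control ovaries and at -2.92, -3.38 and -3.48 in control testes, which overlapped. The Tek difference was -0.02 (95% interval -0.46 to 0.43, adjusted p = 0.955). Its probes gave 0.04 and -0.07 here, but 0.05 and -0.59 in Smad4 (Stella) against control ovaries. Tie1, its partner receptor, was at -2.51, -2.08 and -2.19 in control ovaries and at -1.77, -1.61 and -1.73 in control testes. These did not overlap, but Tie1 varied widely among mutant ovaries. The difference of 0.56 (SE 0.26, 95% interval -0.02 to 1.14, adjusted p = 0.101) did not pass. Within the first slide the Tie1 difference was 0.81.

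The junction and surface genes differed less. Cdh5 (VE-cadherin), the adhesion molecule of endothelial junctions, was at 0.05, 0.08 and 0.28 in control ovaries and at 0.63, 0.49 and 0.38 in control testes. The testes were all above the control ovaries but overlapped the Smad4 (Stella) ovaries, of which the first was at 0.59. The difference was 0.36 (SE 0.13, adjusted p = 0.0398), or 1.28-fold, under the limit of 1.5-fold, and it was 0.45 within the first slide. Emcn (endomucin), a sialomucin of capillaries and veins, was at 2.42, 2.33 and 2.29 in control ovaries and at 2.86, 2.81 and 2.39 in control testes, which overlapped, with a difference of 0.34 (adjusted p = 0.0672). Esam, a junctional adhesion molecule, differed by 0.26 (adjusted p = 0.0917), and its groups overlapped.

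Pecam1 (CD31) is an adhesion molecule of endothelial cells that fetal germ cells also carry. It was at -2.26, -2.36 and -2.53 in control ovaries and at -2.19, -2.16 and -2.17 in control testes. The testes were close together and just above the control ovaries, with a difference of 0.21 (SE 0.17, adjusted p = 0.348). Its probe, too, was printed at 10 spots per array, with an SD of 0.04 to 0.13 between them. A second Pecam1 probe did not rise well above background anywhere and was left out.

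Sox17, a transcription factor of arterial endothelium that germ cells and other tissues also use, was at -0.68, -0.61 and -0.23 in control ovaries and at -0.84, -0.84 and -1.16 in control testes. The difference was -0.44 (SE 0.15, adjusted p = 0.0328), under the limit of 1.5-fold. Its probes did not give the same value: the dimmer gave -0.61 (adjusted p over probes 0.00509), and the brighter -0.27 (adjusted p = 0.26), with testes that overlapped the ovaries. Within the first slide the difference was -0.26. Sox17 probes that were well above background on 2 and 0 of the 12 arrays were left out of the level. Efnb2, the arterial ephrin, differed by -0.36 (SE 0.23, adjusted p = 0.231), and its groups overlapped. The dimmer of the Efnb2 probes was well above background on 11 of the 12 arrays.

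**Figure D3:**
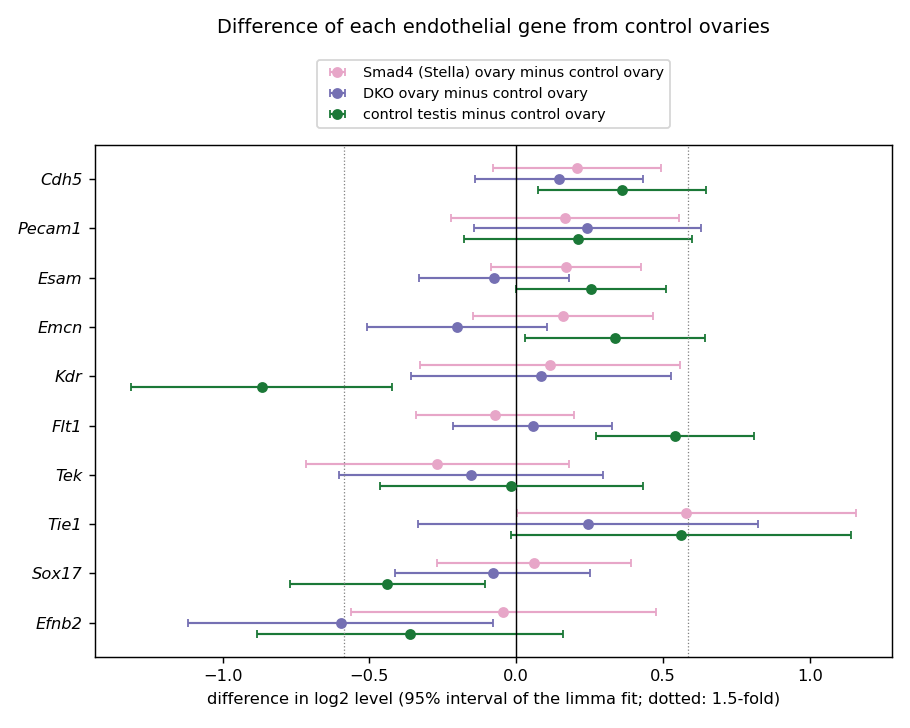
Difference in log2 level from control ovaries (x axis) of each endothelial gene in Smad4 (Stella) ovaries, DKO ovaries and control testes; points are fitted differences of 3 arrays against 3, bars their 95% intervals, and dotted lines mark 1.5-fold. The testis interval of Kdr, -1.31 to -0.42, lies below 0 and that of Flt1, 0.27 to 0.81, above it, while the intervals of the mutant ovaries mostly span 0.

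Among ovaries, 0 of the 10 endothelial genes were called in any of the 3 comparisons. In Smad4 (Stella) against control ovaries, 0.279% of all genes were called and 0.305% passed the adjusted p alone, so few calls were made at all. In DKO against control ovaries the shares were 14.7% and 22.5% of all genes, and in DKO against Smad4 (Stella) ovaries 8.44% and 11.9%, with 0 endothelial genes by either rule in each comparison. At an unadjusted p under 0.05 in limma, 1, 1 and 2 of the 10 passed in these 3 comparisons, and 1, 1 and 1 in the methods' t-test. The shares of all genes that passed in limma at this unadjusted limit were 19.7%, 34.4% and 26.4%, so the 10 did not exceed them. By the methods' test, 3375, 4620 and 4117 of all genes passed in the same order. The median differences of the 10 were 0.14, -0.01 and -0.10, and those of all genes -0.02, 0.00 and 0.01. The germ cell deletion of Smad4, alone or with loss of Stra8, was thus accompanied by no called change in these genes, though the intervals leave room for changes of some size.

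The largest of these differences had their own spread. Efnb2 was at -1.29, -0.73 and -0.96 in control ovaries and at -1.67, -1.32 and -1.79 in DKO ovaries, which did not overlap. The difference was -0.60 (95% interval -1.12 to -0.08, adjusted p = 0.0969). It rested mostly on the dimmer Efnb2 probe, which gave -0.996 (SE 0.44), whereas the brighter gave -0.20 (SE 0.14). The dimmer probe was near the floor, at -5.04 in DKO ovary 1 and -5.23 in DKO ovary 3. On the array of DKO ovary 3 the lowest level well above background was -5.22. The brighter probe overlapped, at 1.61 to 1.92 in control ovaries and 1.34 to 1.71 in DKO ovaries. Within the second slide, 2 arrays against 2, Efnb2 differed by -0.65.

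Tie1 was at -1.22, -1.93 and -1.90 in Smad4 (Stella) ovaries, all above the control ovaries. The difference of 0.58 (SE 0.26, adjusted p = 0.252) was led by the first of these ovaries. The DKO ovaries were at -2.62, -1.69 and -1.74 for Tie1, and their SD of 0.52 was the largest of any group and endothelial gene. Emcn was at 2.53, 2.48 and 2.51 in Smad4 (Stella) ovaries and at 2.11, 1.97 and 2.35 in DKO ovaries, with no overlap, and the difference of -0.36 (SE 0.14) did not pass (adjusted p = 0.122).

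For Kdr and Flt1 the mutant ovaries lay close to the control ovaries. The Kdr difference from control ovaries was 0.12 (95% interval -0.33 to 0.56) in Smad4 (Stella) ovaries and 0.08 (-0.36 to 0.53) in DKO ovaries. That of Flt1 was -0.07 (-0.34 to 0.20) and 0.06 (-0.21 to 0.32). With the slide as a block, the Kdr differences became -0.25 (SE 0.28) and -0.19 (SE 0.18), and the testis difference of -0.41 lay within their spread, so for Kdr the mutant ovaries and the testes were not separated in that fit.

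Set against control testes, the mutant ovaries gave calls for the VEGF receptors only. These comparisons share the 3 testes with that of the controls and are therefore not independent of it. In Smad4 (Stella) ovaries against testes, Kdr rose by 0.98 (SE 0.20, adjusted p = 0.00261) and Flt1 fell by 0.61 (SE 0.12, adjusted p = 0.00226), so 2 of 10 were called, against 30.9% of all genes. With the adjusted p alone Sox17 was added (0.50, adjusted p = 0.0201), making 3 of 10 against 44.2%.

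In DKO ovaries against testes, Kdr rose by 0.95 (SE 0.20, adjusted p = 0.00399), 1 of 10 against 25.8% of all genes. With the adjusted p alone, 4 of 10 passed, against 37.4%: Flt1 (-0.48, adjusted p = 0.0101), Emcn (-0.54, adjusted p = 0.0113) and Esam (-0.33, adjusted p = 0.0438) were added. No slide held testes together with mutant ovaries. With the slide as a block, which links them only through control ovary 1 and DKO ovary 3, Kdr differed from testes by 0.16 (adjusted p = 0.791) in Smad4 (Stella) and 0.22 (adjusted p = 0.604) in DKO ovaries, and Flt1 by -0.80 (adjusted p = 0.0954) and -0.65 (adjusted p = 0.08). The Kdr and Flt1 calls against testes were thus lost under the slide block, Flt1 with a larger difference and Kdr with a smaller one.

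Replicates of a group differed in the place they took across the 10 genes. Smad4 (Stella) ovary 1 had the highest level of its group for 9 of the 10 genes, all but Kdr, while 39.1% of all genes were highest there. Control testis 3 had the lowest level of its group for 8 of the 10, against 39.2% of all genes, and control ovary 1 for 7 of the 10, against 43.1%. Over the 12 arrays, deviations from the group means correlated at r = -0.53 (Pecam1 and Sox17) to 0.94 (Cdh5 and Tek) between members. These are descriptions over arrays that share their scaling, with no value for pairs of genes at large beside them. Smad4 (Stella) ovary 1 also had the brightest array, with a 75th percentile of 997 against 476 to 967 on the others.

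**Figure D4:**
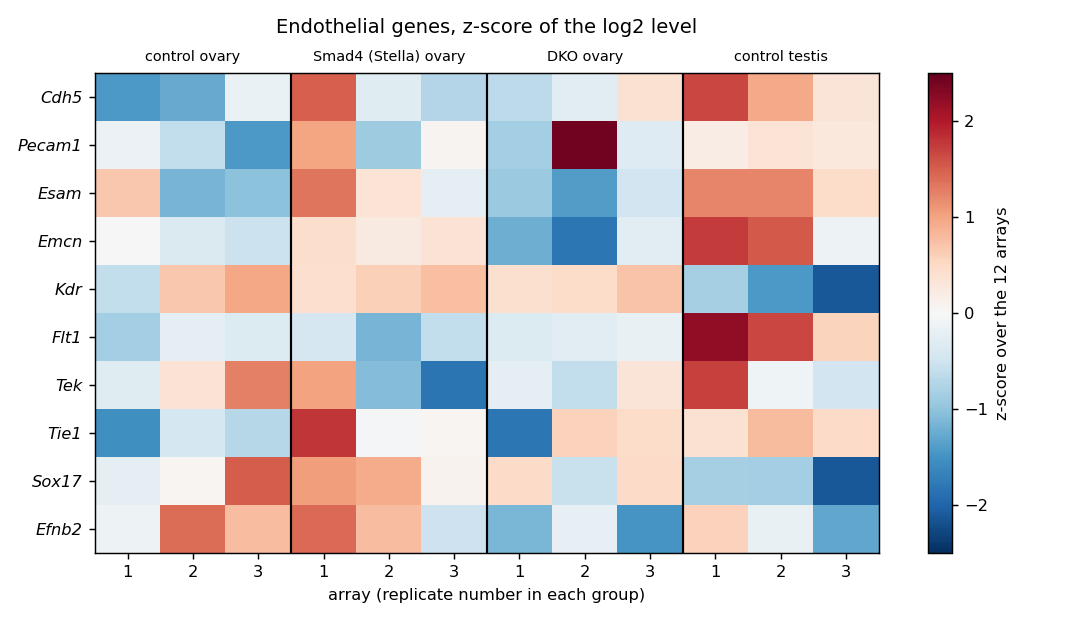
Z-score over the 12 arrays of the log2 level of each endothelial gene (rows) on each array (columns, by group and replicate number); red is above and blue below the gene's mean. Smad4 (Stella) ovary 1 is above the mean for all genes but Flt1, and control testis 3 is lowest for Kdr and Sox17.

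The genes whose profile over the 12 arrays was most like the mean z-score of the 10 were 6230424C14Rik (r = 0.92), Meis2 (0.87), Scarf1 (0.87), Stab1 (0.87), Cxcl13 (0.86) and Pbrm1 (0.83). Scarf1 and Stab1 encode scavenger receptors of endothelial cells. These correlations, over 12 arrays and chosen as the highest, describe likeness only.

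The other vascular genes were taken from 5 lists with 75 genes, of which 74 were tested. Between control testes and control ovaries, 21 of the 74 rose in testes and 5 fell, with a median difference of 0.34. These 26 calls were 35.1% of the list, against 34% of all genes, with 17.2% of all genes higher and 16.7% lower. Of 11 arterial genes tested, 6 rose and 1 fell, with a median of 0.87: the chemokine Cxcl12 rose by 3.17 (SE 0.38), the Notch ligands Jag1 and Dll4 by 1.37 (SE 0.24) and 1.14 (SE 0.21), and the Notch target Hey2 by 1.12 (SE 0.32), whereas the ligand Jag2 fell by 1.17 (SE 0.17). Cxcl12, Jag1 and Jag2 are made by other gonadal cells as well. The counts moved with the processing in both directions. The 74 genes gave 28 higher and 4 lower with the slide as a block, 13 and 3 on the deposited table and 10 and 4 with normexp. Without control ovary 1 they gave 19 and 7, with a median of 0.21. The arterial list gave 7 and 1, 5 and 1, 3 and 1, and 6 and 1 in the same order. The shares of all genes belong to the default fit, here and for the lists below. A shift of a list under another setting cannot be told from a shift of calls at large.

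Of 11 VEGF and angiopoietin ligands and coreceptors, 2 rose in testes and 0 fell (5 and 0 with the slide as a block, 1 and 0 with normexp). Of all genes, 17.2% were called higher and 16.7% lower, so this list was near the share of all genes called higher. Vegfd was at 2.09, 2.06 and 2.27 in control testes against -1.05, -1.25 and -0.88 in control ovaries and rose by 3.20 (SE 0.27, adjusted p = 6.68e-06), and Pgf, a ligand of Flt1 but not of Kdr, rose by 1.56 (SE 0.13, adjusted p = 6.85e-06). Vegfa, the main ligand of both receptors, differed by -0.23 (SE 0.11, adjusted p = 0.0984). In testes, then, the placental growth factor was called higher. Its receptor Flt1 was higher by less than the 1.5-fold limit, and Kdr was called lower by default but not with the slide as a block. Whether these are linked was not tested.

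Of 27 further endothelial genes, 7 rose in testes and 1 fell, with a median of 0.17 (4 and 1 on the deposited table, 4 and 2 with normexp). Beside this and the next 2 lists stand the 17.2% of all genes called higher and 16.7% lower. Their summed intensity, in multiples of the array 75th percentile, was nevertheless lower in testes, at 72.7 to 83.8 against 86.0 to 88.8 in control ovaries. Vwf, the clotting factor that endothelial cells store, rose by 3.47 (SE 0.27), and Eng, a coreceptor of the BMP and TGF-beta receptor ALK1, by 1.07 (SE 0.18). Acvrl1, which encodes ALK1, and Plvap, of fenestrated endothelium, were called higher as well. Kank3 fell by 2.16 (SE 0.12). Of 18 endothelial transcription factors, 4 rose and 2 fell (1 and 1 on the deposited table or with normexp), among them Klf4 (1.27, SE 0.23), Epas1 (0.85, SE 0.13), Foxc2 (0.86, SE 0.28), Lmo2 (-0.70, SE 0.17) and Gata2 (-2.23, SE 0.40). Of 7 venous and lymphatic genes, 2 rose (Nr2f2 by 1.03 and Pdpn by 0.68) and 1 fell (Prox1 by 0.67).

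**Figure D5:**
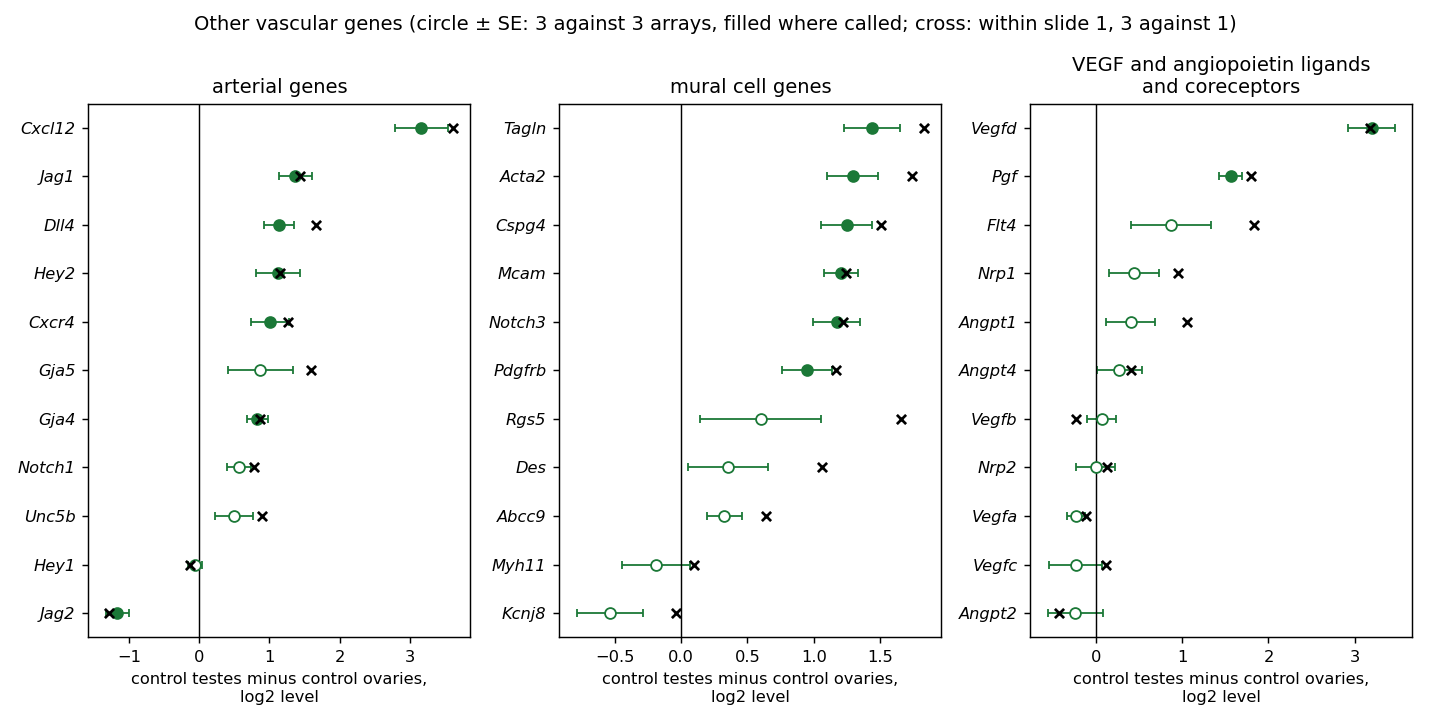
Control testes minus control ovaries in log2 level (x axis) for the arterial, mural and VEGF and angiopoietin lists; circles are fitted differences of 3 arrays against 3 with their SE, filled where called, and crosses are the mean of the 3 testes minus control ovary 1 on the same slide. Mural genes lie mostly right of 0, up to Tagln at 1.44, and Jag2 is the filled circle left of 0.

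Mural cells, the pericytes and smooth muscle around vessels, were represented by a list of their own. Of 11 mural genes, 6 rose in testes and 0 fell, with a median of 0.95, against 17.2% of all genes higher and 16.7% lower. Tagln by 1.44 (SE 0.21), Acta2 by 1.29 (SE 0.19), Cspg4 by 1.25 (SE 0.19) and Notch3 by 1.17 (SE 0.18) were among them, with Mcam and Pdgfrb. The summed mural intensity was 28.5 to 32.0 in testes and 12.8 to 18.2 in control ovaries. That of the 10 endothelial genes overlapped, at 12.9 to 17.5 and 14.3 to 17.4. Kdr and Emcn, the members with the highest levels, weigh most in this sum, and they differed in opposite directions (-0.87 and 0.34). The sum of the 27 further endothelial genes was lower in testes. Such sums add different probes and do not measure the share of a cell type. Within the first slide, 10 of the 11 mural genes were higher in all 3 testes than in control ovary 1, and 0 were lower. Of 11 arterial genes 9 were higher and 2 lower in the same way, and of 27 further endothelial genes 14 and 6. No share over all genes was taken for this count, and control ovary 1 was the lowest control ovary for 43.1% of all genes. Several of these genes, Acta2 and Tagln among them, are also used by the peritubular and interstitial cells of the testis.

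Against control ovaries, 0 of the 74 vascular genes were called in Smad4 (Stella) ovaries, where 0.279% of all genes were, and 6 were higher and 1 lower in DKO ovaries. These 7 were 9.46% of the list, against 14.7% of all genes. Some summed intensities did not overlap with control ovaries even so. The further endothelial genes summed to 100.4 to 102.0 in Smad4 (Stella) ovaries against 86.0 to 88.8, and the transcription factors to 33.4 to 37.7 in DKO ovaries against 25.4 to 28.8. These sums were not tested. Of the 7 calls in DKO ovaries, 4 were transcription factors, Erg (1.28, SE 0.26, adjusted p = 0.00611), Hhex (0.95, SE 0.19), Klf4 (0.90, SE 0.23) and Klf2 (0.63, SE 0.10). Erg was at -1.40, -1.55 and -1.32 in DKO ovaries and at -3.39, -2.35 and -2.36 in control ovaries, lowest in control ovary 1. The others were Vwf (1.11, SE 0.27) and Apln (0.84, SE 0.11), which rose, and the lymphatic factor Prox1, which fell by 0.89 (SE 0.18). These counts moved with the processing, to 3 higher and 4 lower with the slide as a block and to 1 higher and 0 lower on the deposited table or with normexp. In DKO against Smad4 (Stella) ovaries, 2 of the 74 rose, Vwf (1.01) and Hhex (0.90), and Prox1 fell by 0.77, where 4.4% of all genes rose and 4.03% fell. Of the 11 mural genes, 0 were called in either mutant against control ovaries.

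Against control testes, 7 of the 74 were higher and 14 lower in Smad4 (Stella) ovaries, and 7 and 17 in DKO ovaries. That is 28.4% and 32.4% of the list, against 30.9% and 25.8% of all genes. By direction, 14.6% of all genes were higher and 16.3% lower in Smad4 (Stella) ovaries, and 12.7% and 13.1% in DKO ovaries. Of the arterial genes 1 was higher and 5 lower in Smad4 (Stella) ovaries and 1 and 6 in DKO ovaries. Of the mural genes 1 and 6, and 0 and 6, were called in the same order. The VEGF and angiopoietin list gave 0 higher and 2 lower, and 0 and 3, with Vegfd lower by differences of -2.80 (SE 0.27) and -2.78 (SE 0.27).

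Other cells of the gonad moved with these comparisons, and their part in the results was not tested. Between control testes and control ovaries, 7 of 8 Sertoli genes and 6 of 6 fetal Leydig genes tested rose and 7 of 7 pregranulosa genes fell. Of all genes, 17.2% rose and 16.7% fell in this comparison. The summed Sertoli intensity was 114 to 124 in testes and 2.19 to 2.55 in control ovaries, that of Leydig genes 94.4 to 103 and 9.05 to 10.7, and that of pregranulosa genes 13.0 to 16.1 and 67.3 to 79.9. Of 10 erythroid genes, 6 fell in testes, with summed intensities of 213 to 249 against 283 to 407. The erythroid count was 2 with the slide as a block or normexp and 1 on the deposited table. Of 12 macrophage genes 1 fell, with 3.82 to 4.22 against 4.65 to 5.92. Of 10 germ cell genes, 3 rose and 3 fell, and of 6 mesonephric genes 1 rose and 2 fell.

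In DKO against control ovaries, 4 germ cell genes rose and 2 fell, 1 macrophage gene rose, 2 erythroid genes fell and 1 mesonephric gene, Lhx1, rose by 1.54 (SE 0.28). Of the Sertoli, Leydig and pregranulosa genes, 0 were called in either direction. Among all genes, 6.71% rose and 7.96% fell in this comparison. The summed macrophage intensity was 5.63 to 10.7 in DKO ovaries, and the summed erythroid intensity 234 to 260. In Smad4 (Stella) against control ovaries, 0 genes of these lists were called, against 0.279% of all genes.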

How the data were processed

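RNA of E14.5 gonads from 12 samples was measured, 1 array each, grouped by the labels. The authors deposited Feature Extraction 11.0.1.1 output, with processed intensity corrected for background within each array, and a table of the same intensity, rounded, neither scaled nor on the log2 scale. Here each array was scaled to the 75th percentile of its 43379 non-control spots, on the log2 scale of the deposited intensity. Outlier spots were dropped, repeat spots averaged, and a probe was kept where all 3 arrays of some group showed it well above background (27311 of 41174; 15 of 20 endothelial). The mean of a gene's probes was its level. Probe symbols were updated through the RefSeq table on GRCm38.p6 for 31793 probes, and the design positions are on mm9. Saturated spots numbered 0, and 3 arrays per group limit the precision. Each sample was 1 pair of gonads, but nothing says that litters differed, so p-values measure the spread between these samples.

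The comparisons used limma 3.58.1 (R 4.3.3) over all 12 arrays with no block and Benjamini-Hochberg adjustment over 18666 genes. A call needed an adjusted p under 0.05 and 1.5-fold. In simulated data with 200 of 18604 genes changed 2-fold, the fit called 57% to 65% of these, with 3 to 10 false calls per comparison. In that setting many changes of that size were missed. It took its spreads from all genes and changed fewer genes than were called in most of the comparisons here. Its shares therefore do not carry over to the members. The members, and the lists of endothelial, vascular, mural, macrophage, erythroid, germ, Sertoli, Leydig, pregranulosa and mesonephric genes, were chosen with earlier results of these data known. Named were all members, up to 5 of the largest called genes per list and comparison, the 6 genes most like the members, and Stra8 and Smad4; Pdgfrb and Vegfa were named after their values were seen. Tried as alternatives were normexp (offset 50), quantile normalization, the deposited table, the brightest probe, no filter on dim probes, the adjusted p alone, a 2-fold limit, a block by slide or by replicate number, the methods' t-test, a fit of the compared groups alone, and leaving out each array. Single probes, differences within a slide, lists under these settings and the overlap of testes with ovaries were added after seeing the data. Motifs and figures used Python 3.11.15 and matplotlib 3.10.9.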

Additional observations from a re-analysis of the deposited data

How the results depend on the processing

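Median differences of all genes stayed within 0.1 of 0 on the log2 scale by default and with quantile normalization, but on the deposited table they reached 0.40 in Smad4 (Stella) against control ovaries and with normexp 0.27 in DKO against Smad4 (Stella) ovaries. Taken relative to these medians, the Kdr difference of testes from control ovaries was -0.89 on the deposited table and -1.05 with normexp. Its adjusted p was 0.124 on the deposited table, 0.0359 with normexp and 0.00515 with quantile normalization.

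In control testes against control ovaries, the endothelial genes called lower, 1 by default, were 0 with a 2-fold threshold, the deposited table, the slide as a block or the methods' t-test and 2 with the adjusted p alone, and 1 whichever array was left out. Those called higher, 0 by default, were 2 with the adjusted p alone, 1 with the brightest probe or the slide as a block, and 0 to 1 with an array left out (1, Flt1, without control testis 3). In Smad4 (Stella) ovaries against control testes, those higher, 1 by default, were 0 with a 2-fold threshold or the slide as a block, 2 with the adjusted p alone and 1 with any array left out. Those lower, 1 by default, were 0 with a 2-fold threshold, the deposited table, no filter on dim probes, normexp or the slide as a block, and 0 to 1 with an array left out (0 without Smad4 (Stella) ovary 2, control testis 1 or control testis 2). In DKO ovaries against control testes, those higher, 1 by default, were 0 with a 2-fold threshold, the deposited table, normexp or the slide as a block, and 1 with any array left out. Those lower, 0 by default, were 3 with the adjusted p alone, 1 with normexp, and 0 to 2 with an array left out (1 without DKO ovary 3, 2 without control testis 3). The cause was not tested where a setting other than the threshold moved a count. In the comparisons among ovaries, the count was 0 in both directions under every setting. With an array left out, the difference of Kdr between control testes and ovaries ranged from -1.10 to -0.71.

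Replicate numbers did not pair the samples: same-numbered arrays of different groups deviated together at r = -0.18 to 0.15 over genes. With the replicate block the Kdr difference of testes from control ovaries stayed at -0.87 (adjusted p = 0.0112), and the endothelial calls of each comparison were the same in number, 1 lower there, 1 higher and 1 lower in Smad4 (Stella) ovaries and 1 higher in DKO ovaries against testes, and 0 among ovaries.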
